A study of Homo sapiens with 6 samples.

Results

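The retrotransposon-derived gene PEG10 and 9 further genes under parental imprinting were followed in human liver cancer cells given the plant flavonol tamarixetin. The 10 genes were chosen by exact symbol: PEG10 and its neighbour SGCE, with H19, IGF2, DLK1, MEG3, CDKN1C, PLAGL1, PEG3 and SNRPN from other imprinted loci, out of 43424 symbols in the count tables. PEG10 was selected on the same contrast that is described here, so its difference and those of the genes set beside it are given as values, without a test. All 10 symbols were found in the tables and in the RefSeq gene table for GRCh38.

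The cells were HepG2, an established line of human liver cancer whose genotype is labelled WT. Polyadenylated RNA was counted in 3 control libraries, labelled as untreated with no vehicle named, and in 3 libraries of cells exposed to 10 µM tamarixetin for 24 h. Tamarixetin is a methylated relative of quercetin. It was given in RPMI1640 medium with 1% serum, while growth medium held 10%, and no serum is stated for the control cultures over those 24 h, so that an effect of the compound and one of the serum cannot be told apart here. The labels name the replicates biological without saying how the cultures were separated. P-values set the difference between the groups against the spread between these libraries, whatever the source of that spread.

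The libraries held 11980585 to 16168855 counts. Replicates lay close together, with a common biological coefficient of variation of 4.7%. All 8 hepatocyte markers examined (among them ALB, AFP and TTR) were present. Their summed level was 13384 to 13817 CPM (counts scaled to the size of each library) in control and 7077 to 7347 CPM after tamarixetin. Each of the 8 was lower after tamarixetin, with log2 fold changes from -1.305 (FGB) to -0.200 (HNF4A). Their median was -0.89, against 0.00 for all genes tested, of which 21.3% were called lower. Markers of other cell types were low: the fibroblast sum was 39.88 to 45.14 CPM in control and 36.45 to 38.87 CPM in tamarixetin libraries, the endothelial sum 0.878 to 1.42 and 1.01 to 1.90 CPM, with KDR at 0, and the blood sum 11.82 to 14.17 and 13.68 to 15.67 CPM, with CD3E at 0. The part of the hepatocyte marker difference in the values below was not tested. In bulk RNA, fewer cells expressing a gene and less of its RNA per cell cannot be told apart.

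Imprinted genes are transcribed mainly from the copy inherited from 1 parent, under control of DNA methylation that is set in the germ line and kept through cell division. PEG10 and SGCE lie head to head on chromosome 7 and share a methylated control region, and both are expressed from the paternal copy. PEG10 descends from the gag and pol genes of a retrotransposon, is needed for placental development, and is known as an abundant transcript of fetal liver and of many liver cancers. The counts used here carry no allelic information, so they show the level of each gene and not which copy was transcribed.

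PEG10 kept from its retrotransposon ancestor a programmed ribosomal frameshift, by which 1 messenger gives a short gag-like protein and a longer gag-pol-like protein. The site is shown because it marks the retrotransposon origin of the gene, and because its 2 products cannot be separated by counting RNA. It lies in the coding part of the gene at chr7:94664474-94664552 (GRCh38, plus strand, transcript sequence of GENCODE 29), and the capitals mark the slippery heptamer.

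PEG10 frameshift site: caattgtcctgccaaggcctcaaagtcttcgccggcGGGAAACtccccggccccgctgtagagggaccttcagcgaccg

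The first base of the heptamer is base 954 of the coding sequence of the longest annotated transcript, whose unshifted reading frame has 325 codons. A transcript that GENCODE annotates with both frames joined has 707 codons, and coding sequences of 741 and 783 codons are annotated too. Of the 9 annotated PEG10 transcripts, the long forms end at 94669695 or 94669692 and 2 shorter coding forms at 94665698. PEG10-207, with 31 codons, ends at 94663650, and the noncoding PEG10-201 and PEG10-204 end at 94669180 and 94669637. The tables hold 1 count per gene symbol, so these ends were not separated.

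PEG10 stood at 2077, 2083 and 2052 CPM in the 3 control libraries and at 569.7, 564.5 and 572.5 CPM in the 3 tamarixetin libraries. The groups were far apart, and the spread within each was small. The mean was 2071 ± 16.2 CPM in control and 569 ± 4.05 CPM after tamarixetin (SD, n = 3 each), 3.64-fold lower, with a log2 fold change of -1.86 (SE 0.031). PEG10 (chromosome 7, 94656325 to 94669695) took up 0.2043% ± 0.0018 of all counts in control and 0.0575% ± 0.00042 in tamarixetin libraries. Ranked by mean CPM over all genes, it went from place 49 to place 227. Of 8646 tested genes whose mean reached 10 CPM, 9 had a lower log2 fold change than PEG10. Of the 261 genes that reached 500 CPM in control, 1 did.

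SGCE encodes epsilon-sarcoglycan, a membrane protein of the dystrophin-associated complex in which loss-of-function variants cause a form of dystonia when inherited from the father. In the RefSeq annotation 191 bases separate its gene (chromosome 7, 94584980 to 94656133) from the start of PEG10, with the genes head to head. SGCE was measured at 16.52, 15.42 and 14.80 CPM in control and at 13.98, 11.29 and 12.04 CPM in tamarixetin libraries. The groups did not overlap, but the gap between the lowest control and the highest tamarixetin library was under 1 CPM. The mean went from 15.6 ± 0.872 to 12.4 ± 1.39 CPM (SD, n = 3 each), a log2 fold change of -0.32 (SE 0.123). A 3′ protocol is meant to give about 1 fragment per transcript, so counts of different genes were compared without their length. Other differences between genes in how reads were captured or assigned were not tested. Within single libraries there were 125.8, 135.1 and 138.7 PEG10 counts for each SGCE count in control, and 40.74, 50 and 47.54 after tamarixetin. That ratio does not depend on the scaling of the libraries, and its mean was 133 ± 6.68 in control and 46.1 ± 4.80 after tamarixetin, a difference of -1.53 in log2. The difference in PEG10 counts was thus much larger than that in SGCE counts. SGCE overlaps CASD1 in the annotation, and how reads in the shared stretch were assigned is not given in the sources used here.

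**Figure D1:**
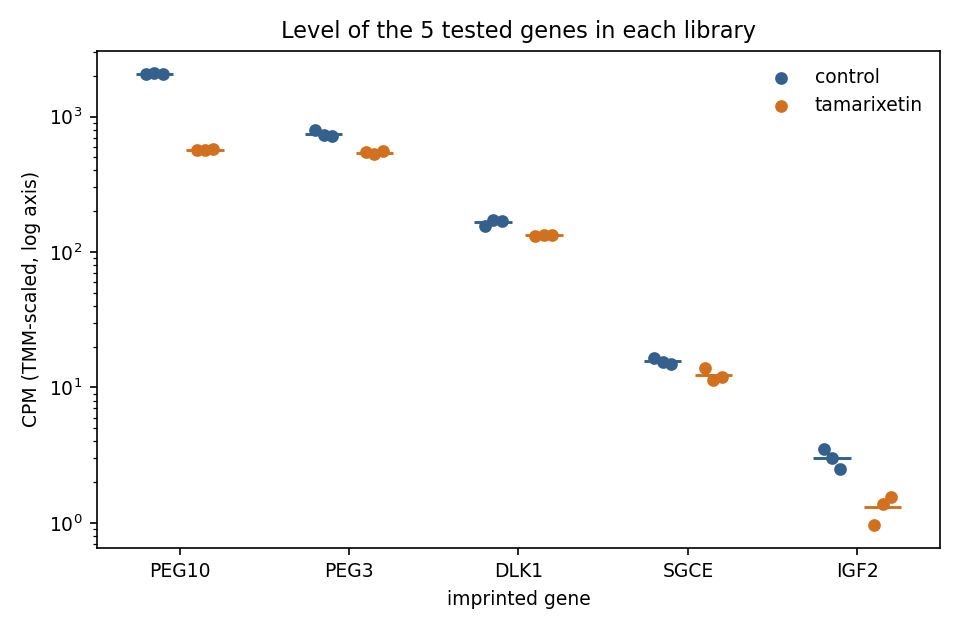
Level of the 5 imprinted genes with enough counts, in CPM on a log axis, in each of the 3 control (blue) and 3 tamarixetin (orange) libraries; points are libraries and bars are group means. PEG10 went from 2071 to 569 CPM, while the control and tamarixetin points of PEG3, DLK1 and SGCE lie much closer together, and IGF2 lies at 3.01 and 1.30 CPM.

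PEG3, a zinc-finger protein gene expressed from the paternal copy and named for that (chromosome 19, 56810082 to 56840726), was the other abundant member. It was measured at 791, 727.1 and 714.3 CPM in control and at 543, 526.3 and 555.5 CPM in tamarixetin libraries. Every control library was above every tamarixetin library. The mean was 744 ± 41.1 and 542 ± 14.6 CPM (SD, n = 3 each), 1.37-fold lower after tamarixetin, with a log2 fold change of -0.46 (SE 0.035). PEG10 and PEG3, which differed 2.79-fold in control (2.626, 2.864 and 2.873 PEG10 counts per PEG3 count), were nearly level after tamarixetin, at 1.049, 1.072 and 1.031. ZIM2, which overlaps PEG3 and is imprinted with it, had 14, 12 and 3 counts in control and 1, 2 and 3 in tamarixetin libraries. Its groups overlapped and it had too few counts for the test.

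DLK1, a membrane ligand of the Notch family type made by fetal hepatoblasts and expressed from the paternal copy (chromosome 14, 100726892 to 100738224), was measured at 155.1, 172.6 and 168.4 CPM in control. After tamarixetin it was at 132.3, 134.0 and 133.4 CPM. The groups did not overlap, and the means of 165 ± 9.15 and 133 ± 0.906 CPM (SD, n = 3 each) gave a log2 fold change of -0.31 (SE 0.046). MEG3, the maternally expressed long noncoding RNA of the same locus (100826108 to 100861026), had 7, 8 and 5 counts in control and 9, 7 and 5 counts in tamarixetin libraries, too few for the test. The paternal ligand and the maternal noncoding RNA of this locus were thus far apart in level in both groups.

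IGF2 encodes a fetal growth factor that is often high in liver cancer and is expressed from the paternal copy (chromosome 11, 2129117 to 2149566). In these libraries it had 51, 36 and 40 counts in control and 15, 19 and 19 counts after tamarixetin. These are 3.53, 3.00 and 2.51 CPM against 0.962, 1.38 and 1.57 CPM, without overlap, and the log2 fold change was -1.22 (SE 0.335). The low counts give IGF2 the widest error of the tested members. IGF2 overlaps IGF2-AS, which had 23 counts in control and 22 in tamarixetin libraries. The IGF2 interval lies inside that of INS-IGF2 (2129117 to 2161209), which had no counts. Whether IGF2 reads were lost where these genes overlap was not tested, so its counts may understate its level. H19, the maternally expressed noncoding RNA that lies beside IGF2 (1995176 to 2001266), had 0 counts in all 6 libraries, which allows up to 0.186 to 0.25 CPM of unscaled counts, depending on the library. Its interval in RefSeq lies inside that of MRPL23, which had 12 and 7 counts, and how reads of overlapping genes were assigned is not given in the sources used here, and whether H19 reads were lost in that step was not tested.

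The remaining members were near the limit of detection. CDKN1C, the maternally expressed inhibitor of cyclin-dependent kinases (chromosome 11, 2883218 to 2885775), had 1 count in each control library and 1, 3 and 2 counts after tamarixetin. PLAGL1, a paternally expressed zinc-finger transcription factor (chromosome 6, 143940300 to 144064599), had 9, 8 and 13 counts in control and 8, 7 and 6 after tamarixetin. SNRPN, a spliceosome component and a known paternal transcript of the Prader-Willi region (chromosome 15, 24823637 to 24978723), had 6, 2 and 0 counts in control and 5, 3 and 0 after tamarixetin. It shares its interval with SNURF (8 and 5 counts in all) and SNHG14 (58 and 45 counts), so that its reads may be split between symbols. These counts are too few for a difference between the groups to be detectable, although PLAGL1 in CPM was lower in every tamarixetin library (0.701 ± 0.101 against 0.505 ± 0.0092 CPM, SD, n = 3 each).

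Of the 10 genes, 5 passed the filter on low counts, and all 5 of those were lower after tamarixetin: PEG10, IGF2, PEG3, SGCE and DLK1 in order of log2 fold change. In edgeR's quasi-likelihood test over 13198 genes, 43.7% were called at an adjusted p under 0.05, 21.3% lower and 22.4% higher, and 24.5% were lower with groups that did not overlap. All 5 tested members were called lower and did not overlap, but since the choice of genes used this contrast, nothing is read from that count. The call of SGCE was lost in 6 of 14 alternatives, with log2 fold changes between -0.42 and -0.25. The PEG10 value lay between -1.90 and -1.83 in all 14.

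**Figure D2:**
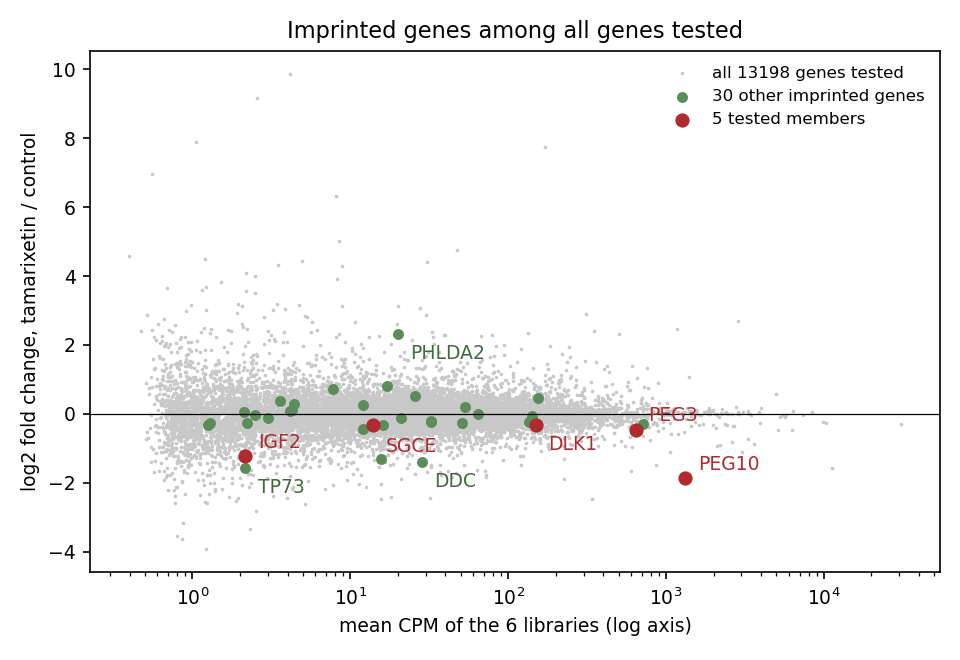
Log2 fold change (tamarixetin against control) by mean CPM of the 6 libraries (log axis) for the 13198 genes tested (grey), 30 other imprinted genes (green) and the 5 tested members (red). PEG10 lies at -1.86 among the most abundant genes, and PHLDA2 is the highest of the other imprinted genes at 2.33.

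For comparison with the members, a list of 66 other genes reported as imprinted was drawn up from general knowledge. Of these, 64 were among the symbols counted and 30 had enough counts. Whether each is imprinted in these cells was not tested. Of the 30, 6 were higher, 10 were lower and 14 did not pass (edgeR's quasi-likelihood test, Benjamini-Hochberg adjusted p under 0.05). That is 53.3% called, against 43.7% of all genes. Without control replicate 1, 5 were higher and 6 were lower. Their median log2 fold change was -0.09, against 0.00 for all genes tested and -0.46 for the 5 tested members, and they ranged from -1.56 (TP73) to 2.33 (PHLDA2).

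PHLDA2, a maternally expressed brake on placental growth (chromosome 11, 2928273 to 2929420), rose the most, from 5.18, 8.25 and 6.58 CPM to 33.8, 32.2 and 33.3 CPM (log2 fold change 2.33, SE 0.119, adjusted p = 4.53e-33). PHLDA2 and CDKN1C belong to 1 domain, in which CDKN1C stayed at 1 to 3 counts a library. SLC22A18, a transporter gene of the same domain, rose from 21.4 ± 4.85 to 30.3 ± 2.49 CPM (log2 fold change 0.51, adjusted p = 1.2e-05). KCNQ1OT1, the noncoding RNA that is transcribed from the paternal copy of that domain, had a log2 fold change of -0.25, but its groups overlapped and the call was lost without control replicate 1 and in DESeq2. IGF2R, the receptor that clears IGF2, rose from 129 ± 9.31 to 179 ± 4.79 CPM (0.47, adjusted p = 2.73e-15). The 3 falls with the smallest p were DDC, an enzyme of amine synthesis (-1.41, adjusted p = 3.97e-25), RBP5, a retinol-binding protein (-1.30, adjusted p = 1.07e-16), and GNAS, the stimulatory G-protein subunit (790 ± 16.02 to 644 ± 15.8 CPM, -0.30, adjusted p = 5.11e-13). UBE3A, the ubiquitin ligase of the Angelman region, was at 145 and 139 CPM and did not pass (-0.06).

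By domain, the KCNQ1-CDKN1C cluster had 2 genes higher, 1 lower and 1 that did not pass, of 4 tested. Over all genes tested, 43.7% were called, 22.4% higher and 21.3% lower, and nothing is read from domain counts this small. In the SNRPN cluster 1 of 4 tested genes was lower, PWAR6 (-0.44), and 3 did not pass. Beside PEG3, MIMT1 did not pass (4.11 and 4.47 CPM). Beside DLK1 no other gene could be tested: RTL1, another gag-derived gene, had 0 and 2 counts and MEG8 0 and 2. The domain genes KCNQ1OT1, SLC22A18, PWAR6, MIMT1, RTL1, MEG8, UBE3A and TP73 were named after their values were seen.

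**Figure D3:**
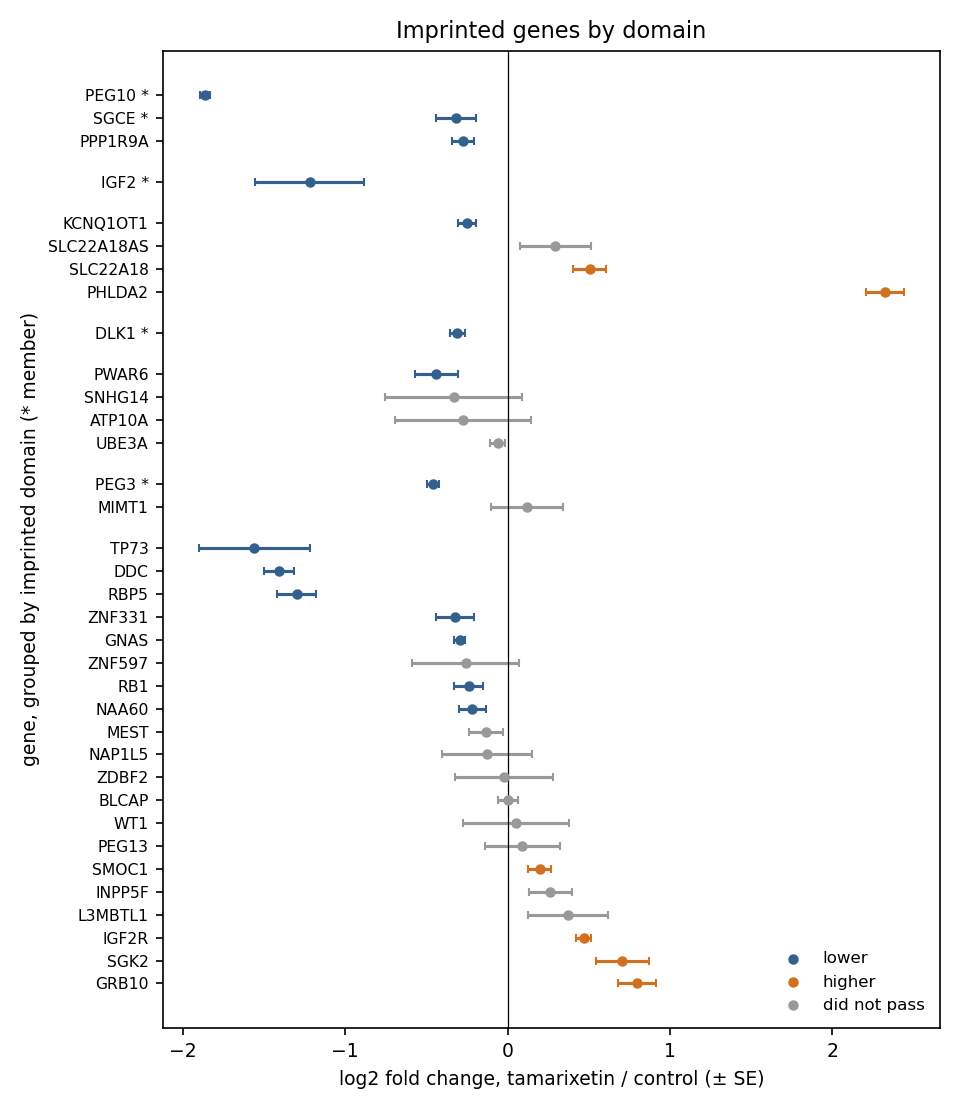
Log2 fold change ± SE (tamarixetin against control) of every tested imprinted gene, in groups by chromosomal domain from the PEG10-SGCE domain at the top, with genes of other loci at the bottom; stars mark the members, and colours show genes called lower (blue), higher (orange) or that did not pass (grey). PHLDA2 and SLC22A18 lie right of 0 in the domain that holds KCNQ1OT1, and PEG10 lies farthest left.

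Around PEG10, 42 other genes lie within 1 Mb in RefSeq, of which 28 were in the tables and 8 were tested: 5 were lower, 1 was higher and 2 did not pass, with a median log2 fold change of -0.28. That is 75% called, against 43.7% of all genes, of which 21.3% were lower. The 5 lower genes became 3 with library size alone as the scaling, without control replicate 1, without control replicate 3 and without tamarixetin replicate 1. SGCE and PEG10 are not among them. CASD1, a sialic acid acetyltransferase gene that overlaps SGCE, fell from 16.2 ± 1.88 to 11.4 ± 1.32 CPM (log2 fold change -0.52, SE 0.126, adjusted p = 0.000381). PPP1R9A, a neurabin gene imprinted with PEG10 in some tissues, fell from 56.0 ± 3.08 to 46.1 ± 2.84 CPM (-0.28, SE 0.069, adjusted p = 0.000564). ASB4, a ubiquitin ligase adaptor gene, rose from 1.20 ± 0.380 to 3.00 ± 0.8998 CPM (1.28, SE 0.346, adjusted p = 0.00129). PON2, a lactonase and the most abundant of these genes, fell from 130 ± 3.48 to 119 ± 3.14 CPM (-0.14, adjusted p = 0.0171), a call lost in 3 of 14 alternatives. BET1, a vesicle fusion protein gene (-0.34, adjusted p = 0.0127), lost its call in 3 as well, and PON3, a further lactonase gene (-0.28, adjusted p = 0.0388), in 7. None of the 8 had a log2 fold change as low as that of PEG10.

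**Figure D4:**
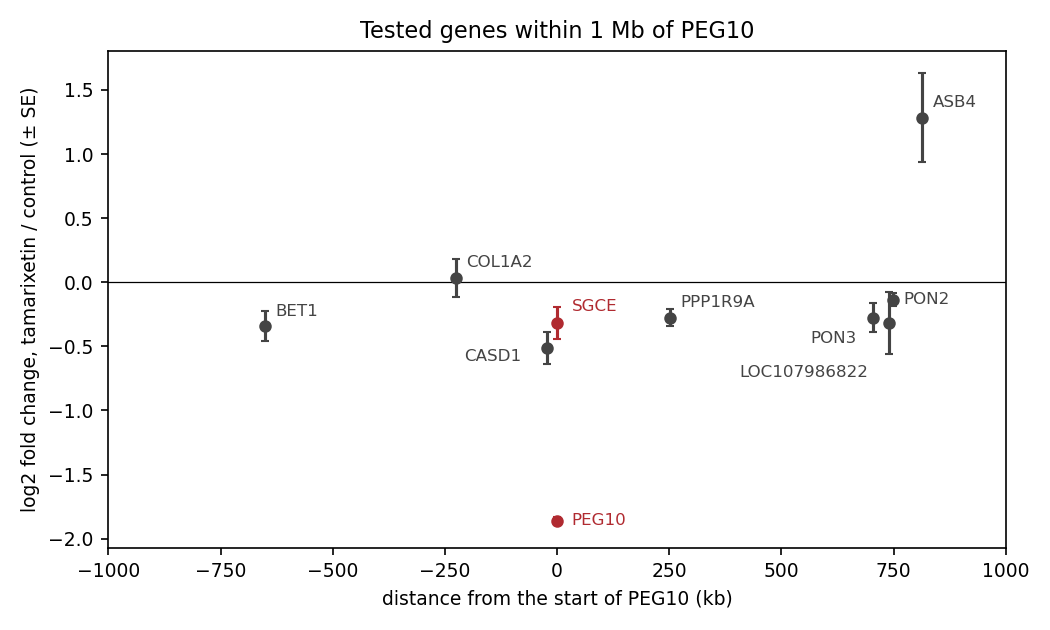
Log2 fold change ± SE (tamarixetin against control) of the tested genes within 1 Mb of PEG10, by distance from the start of PEG10 in kb; PEG10 and SGCE are red. PEG10 lies at -1.86, SGCE and CASD1 beside it at -0.32 and -0.52, and ASB4 is the 1 gene called higher.

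The genes closest to PEG10 in pattern were found by the root mean square distance of centred log2 CPM over the 6 libraries against 8645 other genes whose mean reached 10 CPM. They were APOC3, an apolipoprotein of triglyceride-rich particles (distance 0.044; 356 and 95.7 CPM in control and tamarixetin), TMEM86B, a lysoplasmalogen-hydrolysing enzyme (0.070), DAB2, an endocytic adaptor (0.074), SERPINA7, the thyroxine-binding globulin (0.097), and RGN, regucalcin (0.109). With 2 groups this measure mainly reflects the size of the difference between them. Of the other members, 3 reached 10 CPM and were compared: PEG3 was at place 667, SGCE at 1187 and DLK1 at 1215. IGF2 was below that limit and was not compared.

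Genes known to act on imprints or on DNA methylation were examined, and whether the members depend on them in these cells was not tested. Of 19 listed genes 17 were tested: 10 were lower, 1 was higher and 6 did not pass, with 64.7% called against 43.7% of all genes and a median of -0.24. The de novo DNA methyltransferases DNMT3A (91.2 to 60.3 CPM, log2 fold change -0.60, adjusted p = 1.01e-15) and DNMT3B (18.4 to 9.11 CPM, -1.01, adjusted p = 5.4e-11) fell, as did UHRF1, which brings DNMT1 to replicated DNA (24.7 to 13.9 CPM, -0.83, adjusted p = 4.8e-10). DNMT1, the maintenance methyltransferase (273 to 228 CPM, -0.26, adjusted p = 3.66e-08), and the remodeller HELLS (141 to 107 CPM, -0.40, adjusted p = 1.34e-11) fell less. TRIM28, the corepressor that zinc-finger proteins bring to imprinted regions, was at 165 and 163 CPM and did not pass (-0.01, adjusted p = 0.833). The histone demethylase KDM1B was the 1 gene higher (0.56), and with library size alone as the scaling 3 genes were higher and 9 lower. DNA methylation itself was not measured.

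Of 8 tested partners of IGF2, 6 were lower and 1, IGF2R, was higher (87.5% called, against 43.7% of all genes, of which 21.3% were lower). IGF1R, the signalling receptor, did not pass (0.11, adjusted p = 0.234). The mRNA-binding proteins IGF2BP1 (384 to 291 CPM, -0.40, adjusted p = 9.86e-17), IGF2BP2 (210 to 163 CPM, -0.37, adjusted p = 4.69e-12) and IGF2BP3 (103 to 71.4 CPM, -0.53, adjusted p = 1.93e-14) fell. HMGA2, a chromatin protein upstream of IGF2, fell from 449 to 278 CPM (-0.69, adjusted p = 3.51e-31). The calls of PLAG1 (-0.37, adjusted p = 0.0382), a transcription factor for IGF2, and of INSR (-0.12, adjusted p = 0.0412), the insulin receptor, were lost in 5 and 8 of 14 alternatives. Of the other sarcoglycans, SGCB (9.43 and 9.52 CPM, 0.01) and SGCD (0.75, adjusted p = 0.259) were tested and did not pass.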

How the data were processed

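Counts per gene symbol were deposited by the authors as 1 table per library, unnormalised. Per the submitters' processing notes, the tools were featureCounts 2.0.6, STAR 2.7.10b and fastp 0.23.1, with GRCh38. The library kit, per the labels' protocols, was Lexogen QuantSeq 3′ in its forward version. Not given in the sources used here are the annotation release, the strand setting, the handling of reads in overlapping genes and whether molecular identifiers were counted.

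Tamarixetin was compared with control in R 4.3.3 by the quasi-likelihood test of edgeR 4.0.16 (limma 3.58.1), with no covariate, after filterByExpr and TMM scaling. Benjamini-Hochberg adjustment covered all 13198 genes tested, at a threshold of 0.05. SE was derived from the F statistic as log2 fold change over its square root, and CPM uses TMM-scaled library sizes. Floors cover counting error only and stand for 3 counts. The procedure was tested on simulated data with a common spread and far fewer changed genes than were called here. Calling and scaling at the present extent of change were not tested.

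The members and lists were chosen with earlier results of these data known. In each list the genes named were up to 4 past the threshold with the smallest p and up to 2 with the highest mean CPM, with all tested PEG10 factors, IGF2 partners and sarcoglycans. KDM1B, UBE3A and the domain genes listed above were named after their values were seen. Alternatives were other scalings and filters, DESeq2 1.42.0, limma-voom, a replicate block and leaving out each library. Chi-square per gene was 2.33 to 3.4 between libraries of 1 group, above sampling noise, so none was treated as a copy. Gene positions are from RefSeq (GRCh38) and transcripts from GENCODE 29.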

Additional observations from a re-analysis of the deposited data

How the results depend on the processing

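Among 14 alternatives, PEG10 stayed between -1.90 and -1.83 in log2 fold change. Called genes numbered 5091 to 5852 (5771 as reported). Called other imprinted genes numbered 11 to 17 (16), genes near PEG10 4 to 6 (6) and genes acting on imprints 10 to 12 (11). The number of gag-derived genes called, 1 as reported, was 2 with library size alone, 2 without a filter, 2 with the replicate block and between 1 and 2 when each library was left out (2 without control replicate 3). The added gene was MOAP1, except without a filter, where MOAP1 did not pass. With the replicate block 5735 genes were called. Same-numbered libraries did not deviate together (correlations -0.0089, -0.041 and -0.020), so the numbers were not used to pair them. For 77 single genes other than PEG10, 1063 values were computed: 995 stayed on their side of the threshold, 57 lost the call and 11 gained it. Of the 995, 36 (15 genes, past the threshold neither way) changed sign, among them WT1, ATP10A and ZNF597, and 0 called values did. Scaling moved the median of all genes by at most 0.035 in log2. H19, MEG3, CDKN1C, PLAGL1 and SNRPN had too few counts for the test. Whether depth, low expression or the assignment of reads lies behind that was not tested. Serum, vehicle and compound cannot be told apart, 1 cell line, 1 dose and 1 time were sampled, and the counts hold neither alleles, methylation nor protein.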

Other observations

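Of 6 tested genes known to act on PEG10 or its protein, 1 was higher, 1 was lower and 4 did not pass (33.3% called, against 43.7% of all genes), with a median log2 fold change of -0.02. MYC, a transcription factor reported to drive PEG10, rose from 27.4, 35.6 and 32.0 CPM to 42.1, 47.6 and 42.8 CPM (log2 fold change 0.49, SE 0.081, with edgeR adjusted p = 3.28e-07). E2F1, a cell cycle transcription factor also known as an activator of PEG10, fell from 68.6, 65.9 and 63.4 CPM to 42.4, 40.8 and 39.1 CPM (-0.69, SE 0.068, adjusted p = 1.26e-15). E2F4 (0.15, adjusted p = 0.0689), SIAH1 (0.03), USP9X (-0.06) and UBQLN2, a ubiquilin that turns over PEG10 protein (-0.24, adjusted p = 0.106), did not pass. ACVRL1, a receptor of the TGF-beta family, had 5 and 4 counts, too few for the test. The part of any of these in the PEG10 difference was not tested.

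Of 24 other genes derived from gag sequences, 4 had enough counts and 1 was called (25%, against 43.7% of all genes): PNMA1 rose from 20.4 ± 3.03 to 32.6 ± 1.09 CPM (log2 fold change 0.67, SE 0.094, adjusted p = 2.4e-09). RTL8C, a relative of the PEG10 gag domain, was at 36.6 and 33.9 CPM and did not pass (-0.12, adjusted p = 0.251), nor did RTL10 (0.09) or MOAP1 (0.34, adjusted p = 0.0664). ARC, the capsid-forming gene of neurons, had 1 count over the control and 17 over the tamarixetin libraries. ARC was named after its values were seen.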
